A study of Arabidopsis thaliana with 12 samples.

Results

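The lines gra2-D and gra3-D are grandifolia mutants of Arabidopsis thaliana, dominant mutants named for their large leaves, which the series title ties to a duplicated piece of a chromosome. Their transcript levels were compared on 6 of the 12 ATH1 arrays of the study, 3 for each line, and the other 6 arrays, 3 of wild type and 3 of gra1-D, entered the estimate of spread and served as reference levels. All 12 samples were Col-0 seedlings at growth stage 1.03, raised in vitro on MS medium at 22 °C under 16 h of light and 8 h of dark, of which the vegetative part was taken. The labels record each array as a biological repeat and do not state how many seedlings were pooled, whether the mutants were homozygous, or how the lines arose. Each array gave log2 expression values for 20777 gene loci.

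An Affymetrix ATH1 array carries short probes for most Arabidopsis genes, and RMA turns their brightness into a log2 value per gene. A gene present in an extra copy is often transcribed in proportion to its copy number, so a duplicated segment appears as a run of neighbouring genes with raised signal. Genes elsewhere in the genome can differ as well, and the comparison of gra2-D with gra3-D asks what else differs between a pair of lines that carry a largely shared raised arm. The loci from AT4G31170 to AT4G32810, raised in gra2-D only, are called the stretch here and are kept apart from all other loci. The loci after it on chromosome 4 are raised in both lines and are called the shared arm.

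The comparison covered 141 loci of the stretch, 622 loci of the shared arm and 20014 loci elsewhere. A locus was called different at an adjusted p under 0.05 by limma, which compares group means with a spread shared across the 4 groups, and was counted as expressed where its log2 values averaged 6 or more across the arrays. Values under 5 were treated as close to background. Array medians ran from 6.36 to 6.43. Correlations over loci, which are not independent replicates, were 0.994 to 0.997 between the lines, 0.996 within gra2-D and 0.996 to 0.997 within gra3-D. All 10 floral and all 10 seed storage markers averaged under 5 over the arrays, as did 6 of 8 root markers and 8 of 10 shoot meristem markers, while all 6 leaf and guard cell markers averaged above it. In linear units, the summed signal of the leaf and guard cell markers was 14500 to 14900 in gra2-D and 14900 to 15400 in gra3-D, and that of the shoot meristem markers 894 to 931 and 927 to 963. Neither list held a locus called by limma, against 1 and 2 members at an unadjusted p under 0.05, and their part in the results below was not tested.

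In the stretch, expressed genes of gra2-D stood at about the level that a doubling of signal would give, and those of gra3-D at the wild-type level. The stretch was defined from these arrays, so its values are a description. Relative to wild type and to expressed loci outside the raised region, the median log2 shift of the 94 expressed stretch loci was 0.92, 0.92 and 0.91 on the 3 gra2-D arrays and -0.00, -0.03 and -0.02 on the 3 gra3-D arrays. The gra1-D arrays lay between -0.00 and 0.03. The line means were 0.92 ± 0.0043 (SD, n = 3) in gra2-D and -0.02 ± 0.015 (SD, n = 3) in gra3-D. In the shared arm the same measure gave 0.90 ± 0.017 in gra2-D and 0.91 ± 0.0040 in gra3-D (SD, n = 3).

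At the upper edge, the last expressed gene before the stretch, DCAF1 (AT4G31160), differed by 0.07 ± 0.12 (SE) on the log2 scale, while AT4G31170 and AT4G31180 differed by 1.02 ± 0.067 and 0.95 ± 0.064. At the lower edge, VTE1 (AT4G32770), a tocopherol synthesis gene, differed by 0.71 ± 0.11. AUR1 (AT4G32830), an Aurora kinase gene of mitosis, and PFK6 (AT4G32840), a phosphofructokinase gene, came next among the expressed loci and differed by 0.08 ± 0.11 and 0.18 ± 0.093. The step therefore lay between neighbouring expressed genes at both ends.

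**Figure D1:**
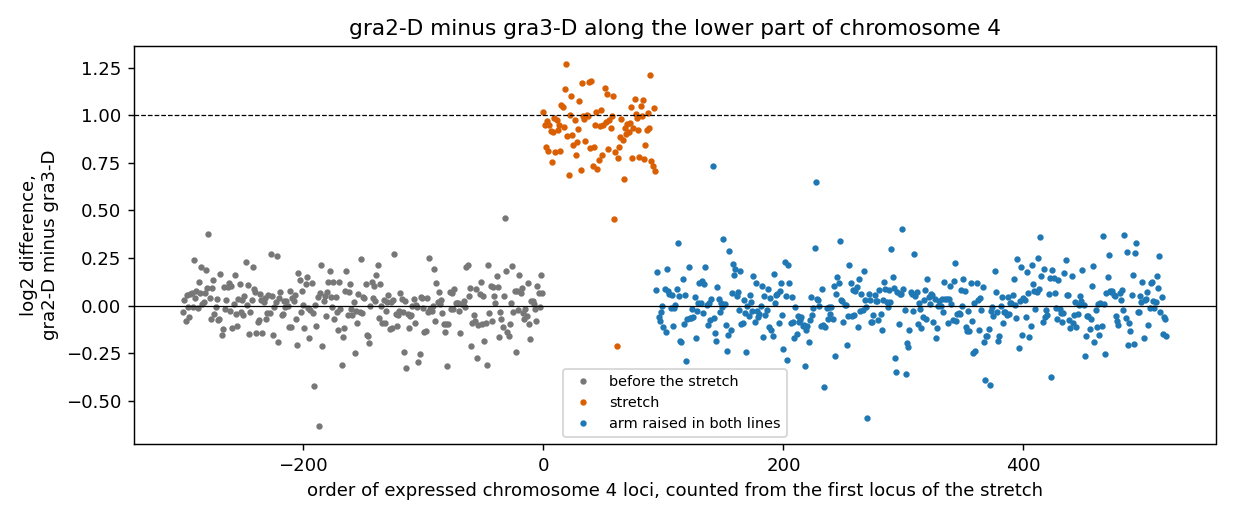
Log2 difference between the gra2-D and gra3-D means (vertical axis) for expressed chromosome 4 loci in the order of their locus names (horizontal axis, counted from the first locus of the stretch). Each point is a locus, and the dashed line marks a doubling. The 94 stretch loci form a raised block with a median of 0.93, and the loci on either side scatter around 0.

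Of the 141 stretch loci, limma called 103 higher in gra2-D (73.0%) and 0 lower, against 149 higher loci (0.717%) and 36 lower loci (0.173%) over all 20777. Among the 94 expressed loci 92 were called, and among the 47 others 11. The median difference of the expressed loci was 0.93, a 1.91-fold level, and their outer deciles were 1.69-fold and 2.13-fold. Loci at a mean log2 value of 6 to 8 and of 8 to 10 had median differences of 0.95 in both classes (43 and 37 loci), and those at 10 to 12 of 0.87 (13 loci). The 37 loci under 5 had a median difference of 0.08, of which 4 were called. Loci close to background therefore showed little of the difference.

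**Figure D2:**
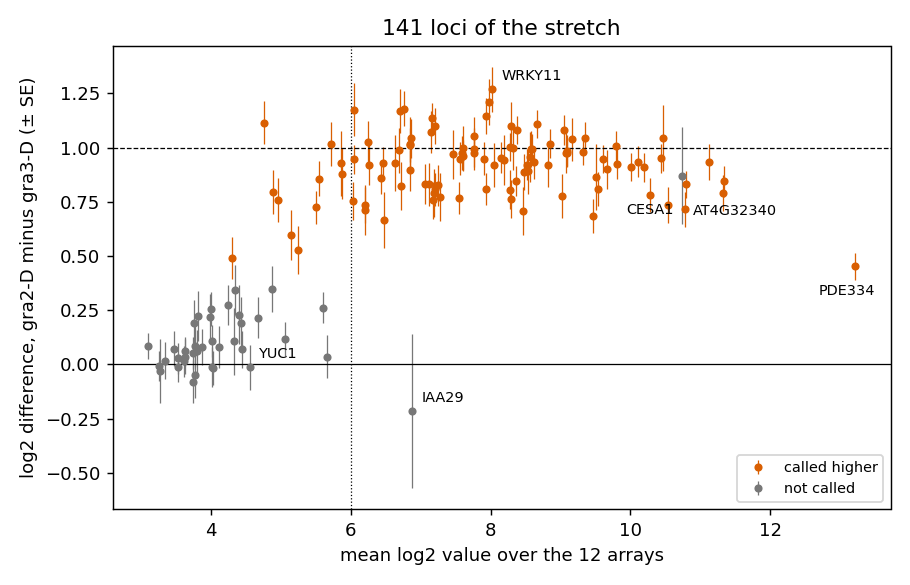
Log2 difference between gra2-D and gra3-D (vertical axis, with SE) against the mean log2 value over the 12 arrays (horizontal axis) for the 141 stretch loci. Orange points were called higher in gra2-D and grey points were not called. The dotted line marks the expression limit of 6 and the dashed line a doubling. IAA29 is the single expressed locus below 0.

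Among transcription genes of the stretch, WRKY11, a WRKY factor of defence and jasmonate signalling, differed most. Its log2 values were 8.90, 8.98 and 8.86 in gra2-D and 7.74, 7.80 and 7.39 in gra3-D, a difference of 1.27 ± 0.10 (SE). WRKY18, a second defence regulator of that family, stood at a mean of 5.53 in gra2-D and at 4.77, close to background, in gra3-D. The size of its difference, 0.76 ± 0.10, is therefore uncertain. LUG, which encodes a transcriptional co-repressor of floral and leaf development, differed by 0.99 ± 0.074, with 9.80, 9.81 and 9.88 against 8.89, 8.78 and 8.87. PC-MYB1, also known as MYB3R1, a regulator of G2/M phase genes, had 7.87, 7.65 and 7.74 in gra2-D and 7.06, 6.92 and 7.01 in gra3-D, a difference of 0.76 ± 0.086. For each of these genes all gra2-D arrays lay above all gra3-D arrays. The homeobox gene KNAT5 differed by 0.94 ± 0.12 and TAFII15, also known as TAF10, a subunit of general transcription factors, by 0.98 ± 0.063.

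The hormone genes of the stretch were less uniform. CYP83B1, which makes indole glucosinolates and thereby draws on an auxin precursor, had 11.40, 11.03 and 11.45 in gra2-D, all above the gra3-D arrays, which had a mean of 10.25 ± 0.22 (SD, n = 3) and a highest value of 10.44. The difference was 1.04 ± 0.15 (SE). ENP, also known as NPY1, a gene of auxin-dependent organ formation, differed by 0.99 ± 0.084, the cytokinin response regulator RR10 (ARR10) by 0.83 ± 0.095 and TIFY8, a relative of jasmonate repressors, by 0.78 ± 0.078. The auxin synthesis gene YUC1 (-0.01 ± 0.10) and CCD8 (0.04 ± 0.081), a strigolactone synthesis gene and the last locus of the stretch, lay under 5 in both lines and were not called. The auxin-induced repressor gene IAA29 was expressed but not higher in gra2-D. Its values were 6.82, 6.33 and 6.47 in gra2-D against 7.48, 6.17 and 6.63 in gra3-D, so the arrays overlapped, and the difference was -0.21 ± 0.36 (adjusted p = 0.9 by limma). Its wild-type values of 8.01, 6.52 and 7.64 spread as widely.

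For wall, transport and metabolism, the cellulose synthase gene CESA1, a subunit of the primary wall complex, differed by 0.91 ± 0.066 (SE), with 10.95, 10.88 and 10.85 in gra2-D and 9.91, 9.98 and 10.06 in gra3-D. SHM3, a serine hydroxymethyltransferase gene, differed by 1.08 ± 0.070, PANK2, of coenzyme A synthesis, by 0.98 ± 0.067, and the plastid carrier gene SHS1 by 0.95 ± 0.073. The peroxidase genes GPX7 and APX6 differed by 0.93 ± 0.15 and 0.89 ± 0.084. The aspartate aminotransferase gene ASP5 differed by 0.83 ± 0.062 and RPS6, a ribosomal protein gene, by 0.85 ± 0.071. AT4G31805, the stomatal polarity gene POLAR, differed by 0.71 ± 0.12. The potassium channel genes KAT3 and KT5 lay under 5 in both lines, at 0.22 ± 0.11 and 0.07 ± 0.086, and were not called. The called genes of this list ran from 0.71, for POLAR and VTE1, to 1.08, for SHM3.

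The largest differences among expressed stretch loci, after WRKY11, were those of La1, which encodes an RNA-binding protein of RNA maturation (1.21 ± 0.11, SE), AT4G31930 (1.18 ± 0.081), AT4G31890 (1.18 ± 0.12) and AT4G31810 (1.17 ± 0.10). The smallest, after IAA29, were those of PDE334, a plastid ATP synthase subunit gene (0.45 ± 0.062), AT4G32350 (0.67 ± 0.13), RSZ22, which encodes an SR splicing factor (0.68 ± 0.078), and VTE1. PDE334 had the highest mean value of the stretch, 13.2. AT4G32340, chosen after its values were seen, was the other expressed locus without a call. Its difference of 0.87 was close to the median of the stretch, but its arrays varied widely, with 11.03, 11.85 and 11.26 in gra2-D and 10.62, 10.73 and 10.18 in gra3-D (adjusted p = 0.125 by limma). The call of AT4G32350 ended without any 1 of 5 arrays (all of these lines but gra3-D replicate 1) and, as for GPX7, in a fit of the gra2-D and gra3-D arrays alone (adjusted p at most 0.138).

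Outside the stretch, few loci passed the test between the 2 lines. Limma called 82 of 20636 loci (0.397%), 46 higher (0.223%) and 36 lower (0.174%) in gra2-D, and 1950 (9.45%) had an unadjusted p under 0.05. Rises and falls given from here on are those of gra2-D relative to gra3-D, not to wild type. Most differences of the called loci were small: 4 of the 82 reached 1 on the log2 scale, 34 lay between 0.5 and 1, and 44 below 0.5, with a smallest value of 0.32. Some loci without a call also differed by more than 1, among them ACD6 (1.29) and AZI1 (1.16). With 3 arrays a line, the lack of a call does not show that the lines were alike at a locus. In all 82 the 3 arrays of gra2-D lay on 1 side of the 3 arrays of gra3-D, which held for 14.4% of all loci outside the stretch. The 82 loci lay on all 5 nuclear chromosomes, at 0.247% to 0.498% of the loci tested on each. In seedling tissue, fewer cells of a type and less RNA per cell cannot be told apart. Many calls did not hold with an array fewer: 21 of the 82 stayed called whichever 1 of the 6 arrays of these lines was left out. The other 61 lost the call without at least 1 of these arrays, 57 of them without any 1 of at least 3. Without gra2-D replicate 1, 2 or 3, limma called 49, 58 and 35 loci, of which 43, 40 and 30 were among the 82. Without gra3-D replicate 1, 2 or 3 it called 50, 48 and 40, of which 35, 38 and 30 were among the 82. In a fit of the 6 arrays alone it called 51, with 43 of the 82 among them.

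In the shared arm, raised in both lines, limma called 2 of 622 loci (0.322%) against 80 of 20014 (0.400%) elsewhere. The median difference of its 426 expressed loci was 0.00, with outer deciles of -0.16 and 0.16, and the expressed loci elsewhere had outer deciles of -0.16 and 0.15. The called loci were COW1 (AT4G34580), a phosphatidylinositol transfer protein gene known from root hair growth, which was lower in gra2-D by 0.68 ± 0.14 (SE, adjusted p = 0.0482 by limma), and HIPP25 (AT4G35060), which encodes a metal-binding isoprenylated protein, lower by 0.43 ± 0.081 (adjusted p = 0.0224). COW1 stood at 4.82, 4.95 and 4.62 in gra2-D, close to background, and at 5.36, 5.56 and 5.50 in gra3-D, so the size of its difference is uncertain. HIPP25 stood at 8.00, 8.00 and 7.87 against 8.42, 8.30 and 8.42. Of the 622 loci, 61 had an unadjusted p under 0.05. The call of HIPP25 ended without any 1 of 5 arrays (every gra2-D array and gra3-D replicates 1 and 3; adjusted p at most 0.125), and that of COW1 without any 1 of 10 arrays (all but WT replicates 2 and 3; at most 0.225) and with a replicate block (0.0733).

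The largest difference outside the stretch was that of QQS (AT3G30720), an Arabidopsis gene without relatives in other species that affects leaf starch content. Its log2 values were 10.27, 10.13 and 10.30 in gra2-D and 6.92, 6.87 and 6.71 in gra3-D. The groups were far apart, with a difference of 3.40 ± 0.13 (SE, adjusted p = 1.15e-08 by limma), a 10.6-fold level. Wild-type arrays stood between these lines at 9.49, 9.44 and 9.05, and gra1-D arrays at 7.47, 7.27 and 7.02, near gra3-D. Every gra2-D array thus lay above, and every gra1-D and gra3-D array below, the wild-type arrays.

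Among called loci, a pair of MADS-box genes came next, FLC (AT5G10140), the central repressor of flowering, and MAF5 (AT5G65080), a member of the same clade. MAF5 had log2 values of 5.45, 5.20 and 4.53 in gra2-D, and of 3.73, 3.75 and 3.90, close to background, in gra3-D. The 3 gra2-D arrays differed among themselves, but the lowest lay above every array of the other groups, whose means were 3.70 in wild type and 3.69 in gra1-D. The difference was 2.4-fold (log2 1.27 ± 0.16, SE, adjusted p = 0.000679 by limma), of uncertain size since gra3-D lay close to background. FLC stood at 5.76, 5.32 and 6.05 in gra2-D and at 4.32, 4.78 and 4.57, close to background, in gra3-D. Its difference was 2.22-fold (1.15 ± 0.18, adjusted p = 0.00467), also of uncertain size. The wild-type mean of FLC, 5.26, lay nearer to gra2-D, and the gra1-D mean, 4.45, nearer to gra3-D.

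Of 12 measured flowering integrators these 2 rose and 0 fell, where 0.397% of all loci outside the stretch were called, and 4 were higher and 2 lower at an unadjusted p under 0.05. AGL20 (SOC1), a promoter of flowering that FLC represses, had 6.16, 6.47 and 5.85 in gra2-D and 7.03, 6.62 and 6.90 in gra3-D, and just missed the threshold (-0.69 ± 0.15, adjusted p = 0.0508 by limma). MAF4, a further clade member, stood close to background in both lines at 0.28 ± 0.074 (adjusted p = 0.138) and SPL3, a flowering promoter, at -0.31 ± 0.13 (adjusted p = 0.447). The median difference of the list was 0.08, against 0.01 over all loci outside the stretch. SEP4, a floral MADS-box gene that is also active in leaves and was on no list, was lower in gra2-D by 0.32 ± 0.068 (adjusted p = 0.0497 by limma), but leaving out any single array of the 12 ended that call.

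HLL (AT1G17560), which encodes a mitochondrial ribosomal protein known from ovule development, was higher in gra2-D at 6.93, 6.97 and 7.10 than in gra3-D at 6.41, 6.27 and 6.25 (0.69 ± 0.078, SE, adjusted p = 0.000157 by limma). Wild type lay between them, at a mean of 6.52. AT2G40960 was higher at 6.97, 6.83 and 7.06 against 6.09, 5.95 and 6.14 (0.89 ± 0.096, adjusted p = 9.97e-05). In that gene the gra2-D mean lay near the wild-type mean of 6.83, and gra3-D and gra1-D lay below it. AT5G60610 was higher at 1.09 ± 0.082 (adjusted p = 3.95e-06), but both lines lay under 5, so the size is uncertain. The further called loci with large rises were AT3G13270 (0.72 ± 0.12), AT5G03390 (0.72 ± 0.14), AT5G25470 (0.61 ± 0.096), AT3G58200 (0.59 ± 0.077), the autophagy gene ATG8B (0.56 ± 0.11) and AT1G65370 (0.55 ± 0.089), of which AT5G25470 and AT3G58200 lay under 5 in both lines. The calls of AT3G13270 ended without replicate 3 of either line (adjusted p at most 0.0637), those of AT5G03390 without replicates 2 or 3 of either line or with the arrays of these lines alone (up to 0.138), and those of ATG8B without any 1 of 7 arrays (all but WT replicates 1, 2 and 3, gra1-D replicate 1 and gra2-D replicate 3; up to 0.151).

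Among the falls, GSO1 (AT4G20140), a receptor kinase gene of the embryonic cuticle and the root endodermis, had 4.93, 4.91 and 5.26 in gra2-D and 5.67, 5.67 and 5.67 in gra3-D (-0.64 ± 0.095, SE, adjusted p = 0.00259 by limma). CCB4 (AT1G59840), which assembles the photosynthetic cytochrome b6f complex, had 7.53, 7.45 and 7.27 against 8.08, 8.06 and 8.00 (-0.63 ± 0.10, adjusted p = 0.00467). In both genes the gra3-D values were close to wild type, whose means were 5.71 and 8.11. TPS9 (AT1G23870), a trehalose phosphate synthase-like gene of sugar signalling, had 5.49, 5.74 and 5.41 against 6.65, 6.27 and 6.10 (-0.80 ± 0.14, adjusted p = 0.00864), a call that ended without gra2-D replicate 3 (adjusted p = 0.0605). AT1G43590 had the largest fall among called loci, -0.92 ± 0.13 (adjusted p = 0.00104), but lay under 5 in both lines, so its size is uncertain. Its wild-type mean, 4.29, lay nearer to gra2-D, at 4.04, than to gra3-D, at 4.96, and gra1-D stood at 5.41. AT5G62280 fell by 0.82, AT1G12080 by 0.68, AT3G20370 by 0.65, AT5G51540 by 0.65 and AT5G35740 by 0.61. The mean of AT5G51540 lay under 5 in both lines. The call of AT5G62280 ended without any 1 of 6 arrays (WT replicate 3 and 5 of these lines, all but gra3-D replicate 2; adjusted p up to 0.141), that of AT3G20370 without any 1 of 9 (all but gra1-D replicates 1 and 3 and gra2-D replicate 1; up to 0.212) and that of AT5G51540 when gra2-D replicate 2 or gra3-D replicate 1 or 2 was left out (up to 0.0783).

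**Figure D3:**
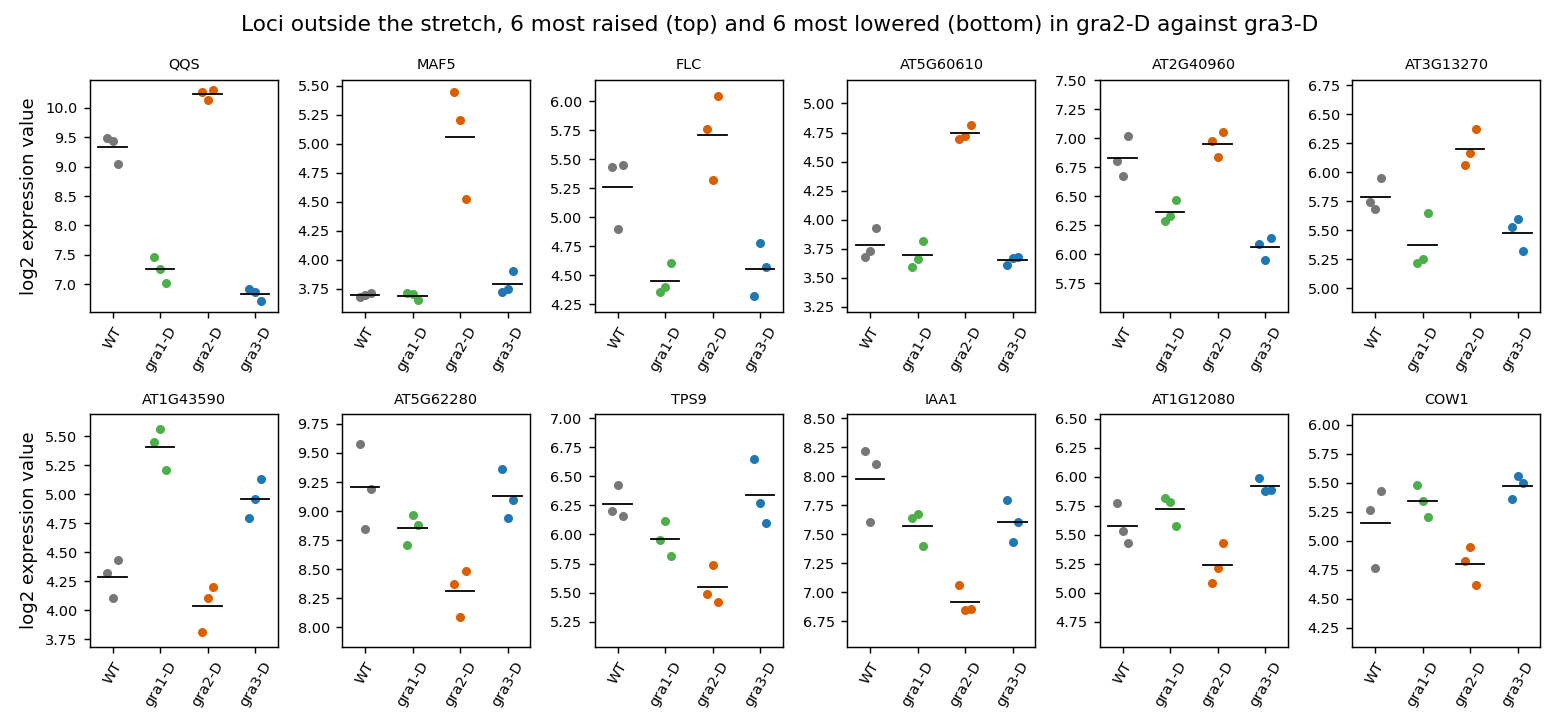
Log2 expression value (vertical axis) of each of the 12 arrays (points) in the 4 groups (horizontal axis), with group means as lines, for the 6 called loci with the largest rise (top row) and the 6 called loci with the largest fall (bottom row) in gra2-D against gra3-D outside the stretch. Each panel has its own scale. For QQS the gra2-D arrays lie above and the gra3-D arrays below those of wild type, and for MAF5 the gra2-D arrays alone stand apart.

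Few genes of the hormone and growth lists were called, and those that were lay lower in gra2-D. The auxin repressor gene IAA1 (AT4G14560) had 7.06, 6.85 and 6.85 in gra2-D and 7.79, 7.43 and 7.60 in gra3-D (-0.69 ± 0.14, SE, adjusted p = 0.0425 by limma), and the auxin-induced gene SAUR68, which was on no list, had 8.18, 7.80 and 8.07 against 8.71, 8.56 and 8.62 (-0.61 ± 0.12, adjusted p = 0.025). Of 16 auxin response genes outside the stretch 1 fell and 0 rose, with a median difference of -0.16. IAA2 stood at -0.50 ± 0.14 (adjusted p = 0.172) and the homeobox gene HAT2 at -0.43 ± 0.15 (adjusted p = 0.348), neither called. GA20OX1, which makes a gibberellin precursor, fell by 0.48 (adjusted p = 0.0271) and was the single called member of 16 gibberellin and brassinosteroid genes. CYCD3;2 (AT5G67260), which encodes a cyclin that drives entry into the cell cycle, had 9.27, 9.35 and 9.38 in gra3-D, all above the gra2-D arrays with their mean of 8.93 ± 0.078 (SD, n = 3) (-0.40 ± 0.065, adjusted p = 0.00624). Wild type, at 9.54, lay above both lines. In a fit of the arrays of these lines alone CYCD3;2 missed the threshold (adjusted p = 0.0576). The calls of IAA1 ended without any 1 of 8 arrays (all but WT replicates 1 and 2, gra1-D replicate 3 and gra3-D replicate 2; adjusted p up to 0.174) and with array weights. Those of SAUR68 ended without any 1 of 5 arrays of these lines (all but gra2-D replicate 1; up to 0.111). Those of GA20OX1 ended without replicates 1 or 3 of either line, with the arrays of these lines alone or with array weights (up to 0.148).

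Of 14 DNA replication genes, a list that holds the D3 cyclins, CYCD3;2 fell, 0 rose, and no other member was called, against 1 higher and 3 lower at an unadjusted p under 0.05. CYCD3;3 stood at -0.29 ± 0.083 (SE, adjusted p = 0.201 by limma) and TSO2, a ribonucleotide reductase gene, at 0.32 ± 0.085 (adjusted p = 0.143). Of 14 G2/M mitotic genes 0 were called, against 3 with an unadjusted p under 0.05, all lower: HIK (AT1G18370), a cytokinesis kinesin gene, at -0.41 ± 0.16, PLE, a microtubule-bundling protein gene, at -0.29 ± 0.095 and CDKB2;2, a mitotic kinase gene, at -0.24 ± 0.080. PC-MYB1, which regulates such genes, was higher in gra2-D as given above. Of 17 leaf size regulators 0 were called, against 1 higher and 4 lower at an unadjusted p under 0.05, led by ARL, which promotes cell expansion, at -0.44 ± 0.14 (adjusted p = 0.278). AN3, a growth co-activator, stood at -0.31 ± 0.12 (adjusted p = 0.422).

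Of 15 cytokinin response genes 0 were called, against 4 lower and 0 higher at an unadjusted p under 0.05. The type-A regulators RR16 (ARR16) and ARR15 stood at -0.66 ± 0.18 (SE, adjusted p = 0.177 by limma) and -0.46 ± 0.12 (adjusted p = 0.115), beside the rise of the type-B regulator RR10 in the stretch. Of 13 indole glucosinolate and camalexin genes outside the stretch 0 were called and 0 had an unadjusted p under 0.05, with differences from -0.09 to 0.07, while CYP83B1 differed by 1.04. Of 10 auxin synthesis genes and 8 strigolactone and karrikin genes 0 were called and 0 had an unadjusted p under 0.05. Of 19 cellulose and wall loosening genes 0 were called, with differences from -0.42 to 0.26. At an unadjusted p under 0.05, 1 was higher: CESA6, a partner of CESA1 in the primary wall complex, at 0.18 ± 0.070 (adjusted p = 0.395).

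Of 20 salicylate defence genes FMO1, which makes a signal of systemic resistance, rose by 0.33 ± 0.068 (SE, adjusted p = 0.0356 by limma) and 0 fell. FMO1 lay under 5 in both lines, so its size is uncertain, and its call ended without any 1 of 11 arrays (all but gra2-D replicate 3; adjusted p up to 0.165), with the arrays of these lines alone and with a further quantile normalization. WRKY70, a salicylate-pathway regulator, had a difference of 1.31 ± 0.30 without a call (adjusted p = 0.0727), since its arrays spread from 6.08 to 7.60 in gra3-D, against 7.93 to 8.65 in gra2-D. CBP60G, an activator of salicylate synthesis, stood at 0.67 ± 0.28 (adjusted p = 0.452) and WRKY60, a partner of WRKY18, at 0.28 ± 0.13 (adjusted p = 0.488). At an unadjusted p under 0.05, 5 of the 20 were higher and 0 lower, and the median of the list was -0.02.

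Sugar and carbon genes went in both directions. Of 15 sugar starvation and senescence genes QQS rose and TPS9 fell, and TPS11, of the same class as TPS9, stood at -0.41 ± 0.16 (SE, adjusted p = 0.396 by limma). Outside the lists, SWEET11, which exports sucrose for phloem loading, rose by 0.38 ± 0.070 (adjusted p = 0.0171), the glycolysis gene PFK2 by 0.45 ± 0.085 (adjusted p = 0.0231) and PYRD, of pyrimidine synthesis, by 0.39 ± 0.081 (adjusted p = 0.0441). The wild-type mean of PYRD, 7.12, lay near that of gra2-D, 7.07, while gra3-D stood at 6.68. BCCP2, a subunit of plastid fatty acid synthesis, fell by 0.40 (adjusted p = 0.0169). These genes, and those of the next paragraph, were chosen after their values were seen, as the called loci that carry a symbol in the gene table.

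Of the 82 called loci 41 carried a symbol, and they were sorted into several roles. Of the 41, 22 were higher and 19 lower in gra2-D, and the roles were assigned after the calls were seen, so the counts by role are a description. The 6 assigned to hormone and growth were IAA1, SAUR68, GA20OX1, CYCD3;2 and GSO1, named above, and AAO2, an aldehyde oxidase gene (-0.45 ± 0.089, SE, adjusted p = 0.0277 by limma). All 6 were lower, and CYCD3;2 and GSO1 alone among them were called without any 1 of the 12 arrays. For AAO2 the wild-type mean, 7.53, lay nearer to gra2-D, at 7.37, than to gra3-D, at 7.82. Of 5 chloroplast and mitochondrion genes 3 were higher, among them Tic20-IV, of the chloroplast import machinery (0.55 ± 0.077, adjusted p = 0.00138), and AOX1C, an alternative oxidase of respiration (0.51 ± 0.098, adjusted p = 0.0244), and 2 were lower, CCB4 and the organelle cryptochrome CRY3 (-0.41 ± 0.078). Tic20-IV averaged 4.90 in gra3-D and AOX1C lay under 5 in both lines, so the sizes of these differences are uncertain. Of 9 chromatin, transcription and RNA genes 6 were higher: NAC001, NF-YC11 and bHLH071, which encode transcription factors, the sirtuin gene SRT1, AGO9 of small RNA silencing and the SET domain gene SUVR1, at 0.33 to 0.50. NAC001, AGO9 and SUVR1 lay under 5 in both lines, so the sizes of their differences are uncertain. The other 3 were lower, the translation factor gene ELF5A-1, the zinc finger gene ATCTH and the splicing factor gene RSZ22a. For ELF5A-1 the wild-type mean, 5.86, lay near gra2-D, at 5.77, while gra3-D stood at 6.29. RSZ22a (AT2G24590) is the close relative of RSZ22 in the stretch: it had 8.18, 8.09 and 8.15 in gra2-D and 8.57, 8.57 and 8.49 in gra3-D (-0.41 ± 0.070, adjusted p = 0.00929), while RSZ22 differed by 0.68 in the other direction. The probes behind each locus are not given in the sources used here, so signal shared between these relatives cannot be judged.

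Of 6 transport and cytoskeleton genes the proton pump gene HA4 (0.44 ± 0.094, SE) and the transporter gene ZIFL2 (0.46 ± 0.088) were higher in gra2-D, and the GTPase gene SGP2 (-0.54 ± 0.10) and the actin-binding gene PLIM2b (-0.46 ± 0.091) were lower beside COW1 and HIPP25. Of 6 genes of protein turnover, stress and defence 5 were higher. They include UBC11, a ubiquitin-conjugating enzyme gene with 8.86, 8.85 and 8.82 against 8.35, 8.47 and 8.53 (0.40 ± 0.067, adjusted p = 0.00823 by limma), and PMSR1, which repairs oxidised methionine (0.46 ± 0.084, adjusted p = 0.0154), along with ATG8B, FMO1 and AACT1 (0.44 ± 0.092), the last of which lay under 5 in both lines. PAM1 was lower (-0.33 ± 0.071). Of the 41 genes with a symbol, 9 were called without any 1 of the 12 arrays: QQS, FLC, MAF5, HLL, Tic20-IV, CCB4, GSO1, CYCD3;2 and UBC11. The other 32 lost the call without at least 1 array, with adjusted p up to 0.225. In a fit of the gra2-D and gra3-D arrays alone 21 of the 41 lost the call, CYCD3;2 and UBC11 among them.

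**Figure D4:**
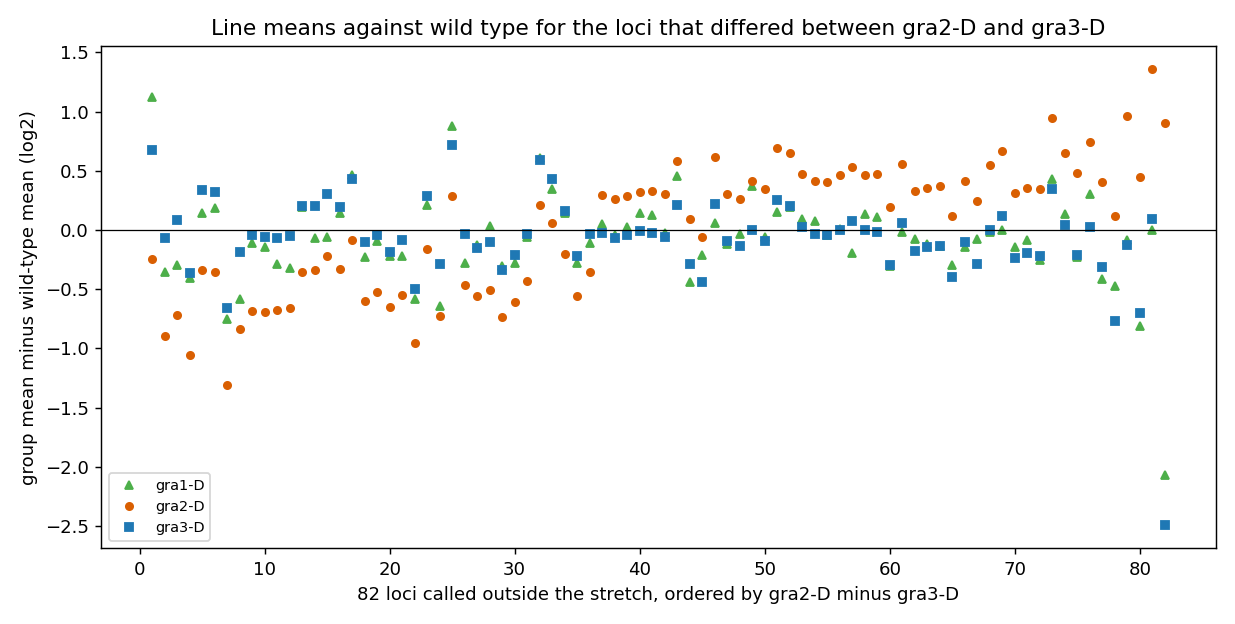
Mean log2 value of gra1-D (triangles), gra2-D (circles) and gra3-D (squares) minus the wild-type mean (vertical axis) for the 82 loci called outside the stretch, ordered by the difference between gra2-D and gra3-D (horizontal axis). The gra1-D mean lies nearer to gra3-D than to gra2-D for 75 loci.

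For most of the 82 loci it was gra2-D that stood apart from the other groups. The gra1-D mean, which took no part in the choice of these loci, lay nearer to gra3-D at 75 and nearer to gra2-D at 7, against 56.2% nearer to gra3-D over all loci outside the stretch. The wild-type mean lay nearer to gra3-D at 66 and nearer to gra2-D at 16, against 57.1%. Against wild type, limma called 63 of the 82 in gra2-D, 15 in gra3-D and 19 in gra1-D, where 11.0%, 6.11% and 5.59% of all loci outside the stretch were called. These comparisons share the wild-type arrays, and the first pair shares the arrays that chose the loci. The 16 loci where wild type lay nearer to gra2-D include QQS, FLC, AT2G40960, AT1G43590, SWEET11, PYRD, AAO2, ELF5A-1 and HIPP25.

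**Figure D5:**
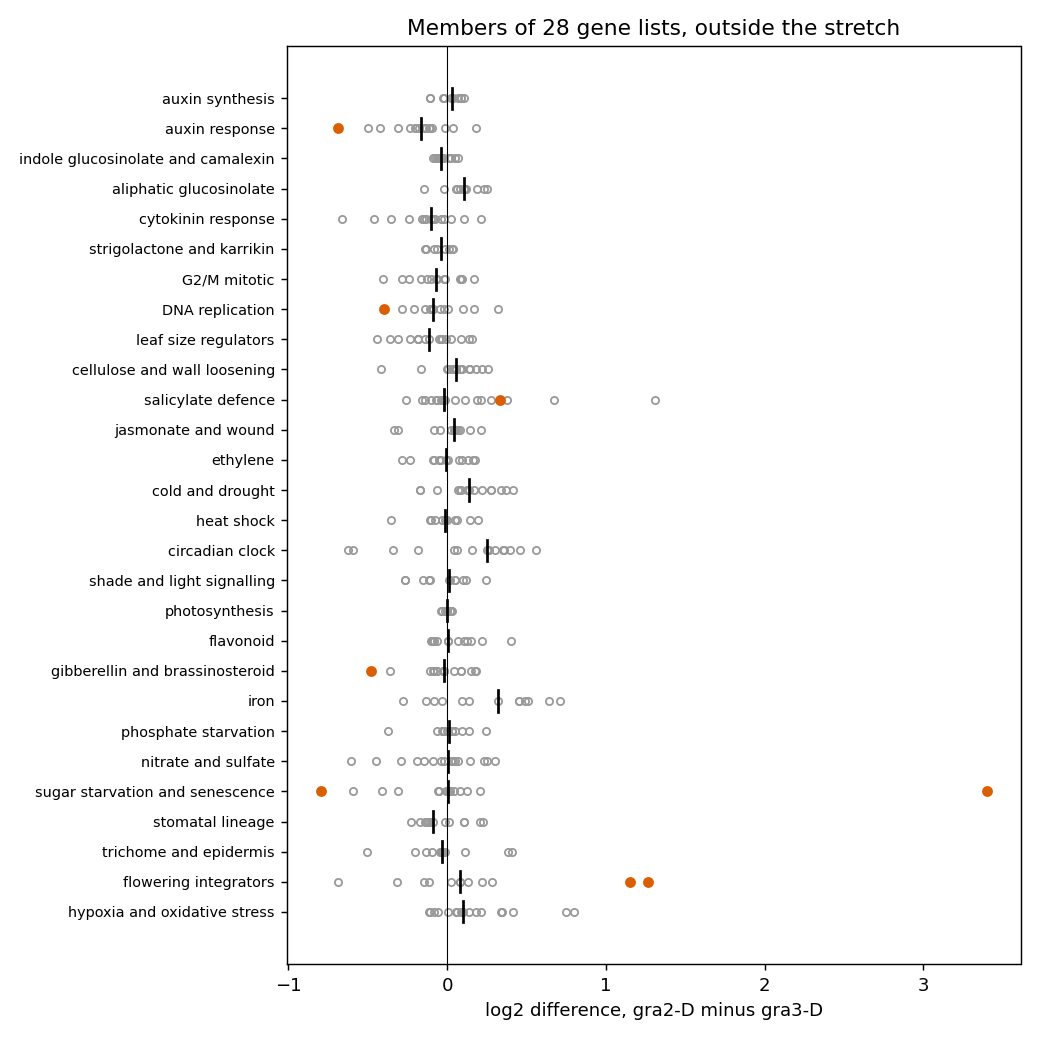
Log2 difference between gra2-D and gra3-D (horizontal axis) of the members of 28 gene lists outside the stretch (rows). Filled points were called, open points were not, and bars mark list medians. Medians lie between -0.16 for auxin response and 0.32 for iron genes, and 22 lists hold no called member.

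Of the 28 lists, 22 held no called member outside the stretch. Of 382 list loci outside the stretch 8 were called (2.09%), against 0.397% of all loci there, but the lists were written with earlier results of these arrays known and some were written around them. Of 13 iron genes 0 were called and 4 were higher at an unadjusted p under 0.05, with the highest list median, 0.32. The largest difference of this list, 0.71, was that of bHLH39. FRO3, an iron reductase gene, stood at 0.49 ± 0.13 (SE, adjusted p = 0.125 by limma) and BTS, a ubiquitin ligase gene that limits the iron response, at 0.51 ± 0.19 (adjusted p = 0.389). Of 16 nitrate and sulfate genes 0 were called and 3 were lower at an unadjusted p under 0.05, the nitrate reductase genes NIA2 (-0.45 ± 0.099, adjusted p = 0.0614) and NIA1 (-0.61 ± 0.21, adjusted p = 0.318) and the nitrite reductase gene NIR1 (-0.29 ± 0.084, adjusted p = 0.201).

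Of 15 circadian clock genes 0 were called, against 2 higher and 1 lower at an unadjusted p under 0.05, and the list median was 0.25. TOC1, an evening gene of the clock, stood at 0.56 ± 0.18 (SE, adjusted p = 0.288 by limma) and RVE1, a morning gene, at -0.63 ± 0.23 (adjusted p = 0.378). Of 15 cold and drought genes 0 were called and 3 were higher at an unadjusted p under 0.05, and the largest difference of the list was 0.42. Among the 3 was the dehydrin gene ERD10, which had 9.85, 10.01 and 9.87 in gra2-D and 9.54, 9.56 and 9.51 in gra3-D without overlap (0.37 ± 0.081, adjusted p = 0.0537). Photosynthesis genes differed least, with 0 of 8 called, 0 at an unadjusted p under 0.05 and differences from -0.04 to 0.03. The aliphatic glucosinolate, ethylene, jasmonate and wound, heat shock, shade and light signalling, flavonoid, phosphate starvation, stomatal lineage, trichome and epidermis, and hypoxia and oxidative stress lists held 0 called members outside the stretch, against 7 higher and 8 lower at an unadjusted p under 0.05 among 130 members. Their medians ran from -0.09 to 0.11.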

How the data were processed

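The authors deposited a table of log2 expression values, made with RMA per the submitters' processing notes (version not stated), with a row for each of 20777 loci. The probe definition and genome build are not given in the sources used here. Symbols were read from RefSeq's genes on TAIR10.1, where 20508 loci had a match. A single limma fit covered all 4 groups (limma 3.58.1, R 4.3.3, lmFit and eBayes, 8 residual degrees of freedom, prior 5.28), and the contrast gra2-D minus gra3-D was adjusted by Benjamini-Hochberg over all loci. The median SE was 0.0886. No filter was applied. Arrays have no read depth, so their number limits precision. The script was tested on simulated data.

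Named outside the stretch were the 12 largest called differences in each direction with non-overlapping arrays, the called shared-arm loci, up to 4 members of each list, and, after their values were seen, called loci with a symbol. The list members MAF4, WRKY60 and CESA6 were named outside this rule, and some members that it gave were left out. In the stretch, the edges, the 5 largest and 5 smallest differences and role lists were named. Members and lists were chosen with earlier results of these data known. Lists held 503 loci, 459 of them measured. Replicate numbers were not taken as pairs of the lines. Alternatives covered the block, the arrays fitted, normalization, trend, weights, filters and single arrays.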

Additional observations from a re-analysis of the deposited data

Results flagged for a closer look

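At 10 called loci outside the stretch every gra2-D array lay on 1 side of all wild-type arrays and every gra3-D array on the other side, against 28 such loci outside the stretch in all. The test of the difference is the limma contrast between the lines, which does not test either line against wild type. QQS differed by 3.40 on the log2 scale, AT3G13270 by 0.72, HLL by 0.69, AT1G65370 by 0.55, Tic20-IV by 0.55, NAC001 by 0.50 and SWEET11 by 0.38, all higher in gra2-D than in wild type and lower in gra3-D. The gaps to wild type were unequal for SWEET11, with means of 10.63 in gra2-D, 10.53 in wild type and 10.25 in gra3-D. AT1G68110 (-0.53), AT2G19930 (-0.52) and AT5G27410 (-0.36) were lower in gra2-D and higher in gra3-D. AT1G68110 and NAC001 lay under 5 in both lines, so their sizes are uncertain. The call of AT2G19930 ended without any 1 of 7 arrays (WT replicate 2, gra1-D replicate 1 and all of these lines but gra2-D replicate 3, with limma's adjusted p at most 0.141), that of AT5G27410 without any 1 of 5 (all of these lines but gra2-D replicate 1; up to 0.125), that of NAC001 without any 1 of 5 (all of these lines but gra2-D replicate 2; up to 0.105) and that of SWEET11 without gra2-D replicate 3 or gra3-D replicate 1 or 3 (up to 0.099). Groups of 3 arrays were not tested for single outlying arrays.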

How the results depend on the processing

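The count of 82 loci called outside the stretch lay between 62 and 98 with a further quantile normalization, centring on chromosomes 1, 2, 3 and 5, an intensity trend, array weights or filters on low values. It was 51 (43 of the same loci) with the gra2-D and gra3-D arrays alone and 127 (73 of the same loci) with a replicate block, and ran from 35 to 80 without any 1 of the 12 arrays. Rises outnumbered falls with the intensity trend (42 and 35), array weights (58 and 40), these arrays alone (29 and 22) and the block (69 and 58). They did not with the quantile normalization (42 and 42), the centring (41 and 41) or filters at a mean log2 value of 5 (36 and 37) or 6 (28 and 34). Deviations of same-numbered gra2-D and gra3-D arrays correlated at -0.09, 0.37 and 0.01 over expressed loci, and those of unlike numbers at -0.23 to 0.24. The numbers were not taken as pairs, and a batch shared by replicate number was not tested. In the shared arm, 2 loci were called with all arrays, 1 with the replicate block, 1 with a filter at a mean log2 value of 6, and 0 to 3 without any 1 array. The 103 stretch calls lay between 92 and 104 under all 20 alternatives. The shift of the stretch between the lines, 0.94, lay between 0.93 and 0.95 under the 10 alternatives that apply to it (normalization, centring, expression limits and leaving out single gra2-D or gra3-D arrays). Of the called loci outside the stretch, 19 were called in every alternative that tested them, among them QQS, FLC, MAF5, HLL, GSO1, CCB4 and Tic20-IV. No named locus with a call changed sign. Values near background, where 18 of the 82 loci lay in both lines, limit the sizes given.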

Other observations

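Loci of the organelle genomes showed no difference between gra2-D and gra3-D that passed the test, with 0 of 73 plastid loci and 0 of 31 mitochondrial loci called by limma. At an unadjusted p under 0.05 were 1 of the 73 and 6 of the 31, against 9.45% of all loci outside the stretch. The mitochondrial share was thus the higher, and no call does not show that these genomes were alike. On the nuclear chromosomes, 21 of 5400 loci were called on chromosome 1, 8 of 3239 on chromosome 2, 19 of 4152 on chromosome 3, 10 of 2926 on chromosome 4 outside the stretch and 24 of 4815 on chromosome 5. Of the 82 called loci 41 had no symbol in the gene table, 24 of them higher in gra2-D and 17 lower.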
